A study of Mus musculus with 9 samples.

Results

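The mu-class glutathione transferases are the enzymes encoded in the mouse by Gstm1, Gstm2, Gstm3, Gstm4, Gstm5, Gstm6 and Gstm7. Members were the probe sets whose platform annotation gives 1 gene symbol among these names. All 7 genes were measured, by 8 probe sets, among 19937 genes and 34760 probe sets in all. They were chosen by their RNA levels, for a common fall against the control hairpin, so every difference from that control is given below as a description with no test. Differences among the Brg1 hairpins were not the ground of that choice and were tested. The levels with each hairpin did enter it, so these tests are not fully independent of the choice.

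RNA levels came from 9 Affymetrix arrays of RN2, a murine line of acute myeloid leukaemia. Its label reads MLL-AF9/NrasG12D, after its fusion gene and activated Nras allele. The knockdown groups Brg1sh_3232, Brg1sh_3364 and Brg1sh_4935 each held 2 arrays of cells with a TRMPV vector, whose doxycycline-inducible hairpin targets Brg1. Brg1, encoded by Smarca4, is an ATPase of the SWI/SNF chromatin remodelling complex, and the series asked which transcripts depend on it. The Rluc group held 3 arrays of cells with a hairpin against Renilla luciferase, for which mouse cells have no gene. All 9 arrays came from cells given 1 ug/ml doxycycline for 96 h. The titles of all 9 arrays name TRMPV, those of Rluc included. The cell line label of the Rluc arrays nevertheless carries the extra term TtTMPV, and this difference in label cannot be told apart from the comparison with Rluc. The labels do not say that the replicates are separate cultures, and p-values therefore reflect only the spread among these arrays, which could be technical.

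Values are log2 expression after RMA, and array medians lay between 7.39 and 7.49. Smarca4 (probe set 10583697) stood at 10.67 and 10.90 with Brg1sh_3232, 10.78 and 10.81 with Brg1sh_3364, and 10.70 and 10.76 with Brg1sh_4935, against 11.79, 11.77 and 11.79 with Rluc. It fell by 1.01 on the log2 scale over the mean of the hairpins (SE 0.05, limma adjusted p = 2.22e-06). The 12 listed myeloid leukaemia and progenitor markers had a mean level of 12.31 to 12.46 in knockdown arrays and 12.35 to 12.44 in Rluc arrays. The 10 hepatocyte, epithelial and stromal markers had a mean level of 7.49 to 7.67 in knockdown arrays and 7.49 to 7.53 in Rluc arrays. RMA values hold no 0 and no detection calls were used, so no marker could be called absent.

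Glutathione transferases join the tripeptide glutathione to electrophiles such as epoxides, quinones and the aldehydes of oxidised lipids, which makes them soluble and ready for export. The mu class is soluble and active as dimers, and several of its genes are known in liver as targets of the antioxidant factor NRF2. Mouse Gstm1 also binds and restrains the stress kinase ASK1. The genes lie side by side on mouse chromosome 3 in the order Gstm5, Gstm7, Gstm6, Gstm3, Gstm2, Gstm1, Gstm4 in the RefSeq gene table of assembly GRCm38.p6. Their sequences are alike, so a probe of one member may also take up RNA of another.

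The promoter sequences below belong to the 3 members whose level differed among the Brg1 hairpins (Gstm1, Gstm2 and Gstm3) and to Gstm5, which had the lowest percentage of the Rluc signal. For Gstm3 that difference was called with its brighter probe set only. Each is the stretch of 250 bases before a RefSeq start, written 5′ to 3′ on the strand of the gene, from RefSeq with build GRCm38.p6. Their positions are chr3:108017974-108018223 on the minus strand for Gstm1, chr3:107986421-107986670 on the minus strand for Gstm2, chr3:107969175-107969424 on the minus strand for Gstm3 and chr3:107895604-107895853 on the plus strand for Gstm5. Capitals mark the matches to the motifs searched.
Gstm1: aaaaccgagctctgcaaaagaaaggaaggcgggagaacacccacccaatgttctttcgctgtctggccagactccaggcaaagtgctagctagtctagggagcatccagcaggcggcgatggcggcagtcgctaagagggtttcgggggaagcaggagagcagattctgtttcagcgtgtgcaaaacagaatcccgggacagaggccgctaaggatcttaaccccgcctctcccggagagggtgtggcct
Gstm2: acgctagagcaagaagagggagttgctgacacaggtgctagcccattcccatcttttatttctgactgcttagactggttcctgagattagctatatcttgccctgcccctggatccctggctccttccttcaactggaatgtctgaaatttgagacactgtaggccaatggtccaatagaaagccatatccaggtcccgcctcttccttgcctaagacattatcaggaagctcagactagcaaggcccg
Gstm3: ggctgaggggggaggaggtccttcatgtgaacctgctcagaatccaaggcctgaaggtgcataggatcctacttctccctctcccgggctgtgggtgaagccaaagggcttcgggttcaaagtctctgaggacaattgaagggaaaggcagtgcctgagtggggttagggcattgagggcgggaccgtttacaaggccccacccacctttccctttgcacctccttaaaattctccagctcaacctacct
Gstm5: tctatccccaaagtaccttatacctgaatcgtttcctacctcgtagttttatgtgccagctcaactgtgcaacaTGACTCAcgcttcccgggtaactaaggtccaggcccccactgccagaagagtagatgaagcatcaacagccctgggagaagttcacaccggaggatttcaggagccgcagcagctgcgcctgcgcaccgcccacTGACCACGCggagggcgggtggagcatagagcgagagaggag

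The motif search was added after the expression values were seen, and it read both strands of 12 such windows over the 7 genes. The core of the antioxidant response element, the site of NRF2 (letters TGACNNNGC), was found in 1 window each of Gstm5 and Gstm7. In Gstm5 it lay 42 to 34 bases before the start, as the second capital run above, and in Gstm7 it lay 129 to 121 bases before the start. The same letters stood in 10.2% of all 32851 windows of this length. The AP-1 site (TGANTCA), whose letters can overlap those of the antioxidant element, was found in Gstm5 from 176 to 170 bases before the start, as the first capital run above, and in 6.75% of all windows. The TATA box (TATAAA), where the basal machinery binds, was found 30 to 25 bases before a second start of Gstm1 and 231 to 226 bases before 1 start of Gstm7, and in 12.4% of all windows. The E-box CACGTG, bound by Myc, was found in none of the member windows and in 6.02% of all windows. None of these motifs is in the printed windows of Gstm1, Gstm2 or Gstm3. These matches are letters in a window and say nothing of a factor being bound there.

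**Figure D1:**
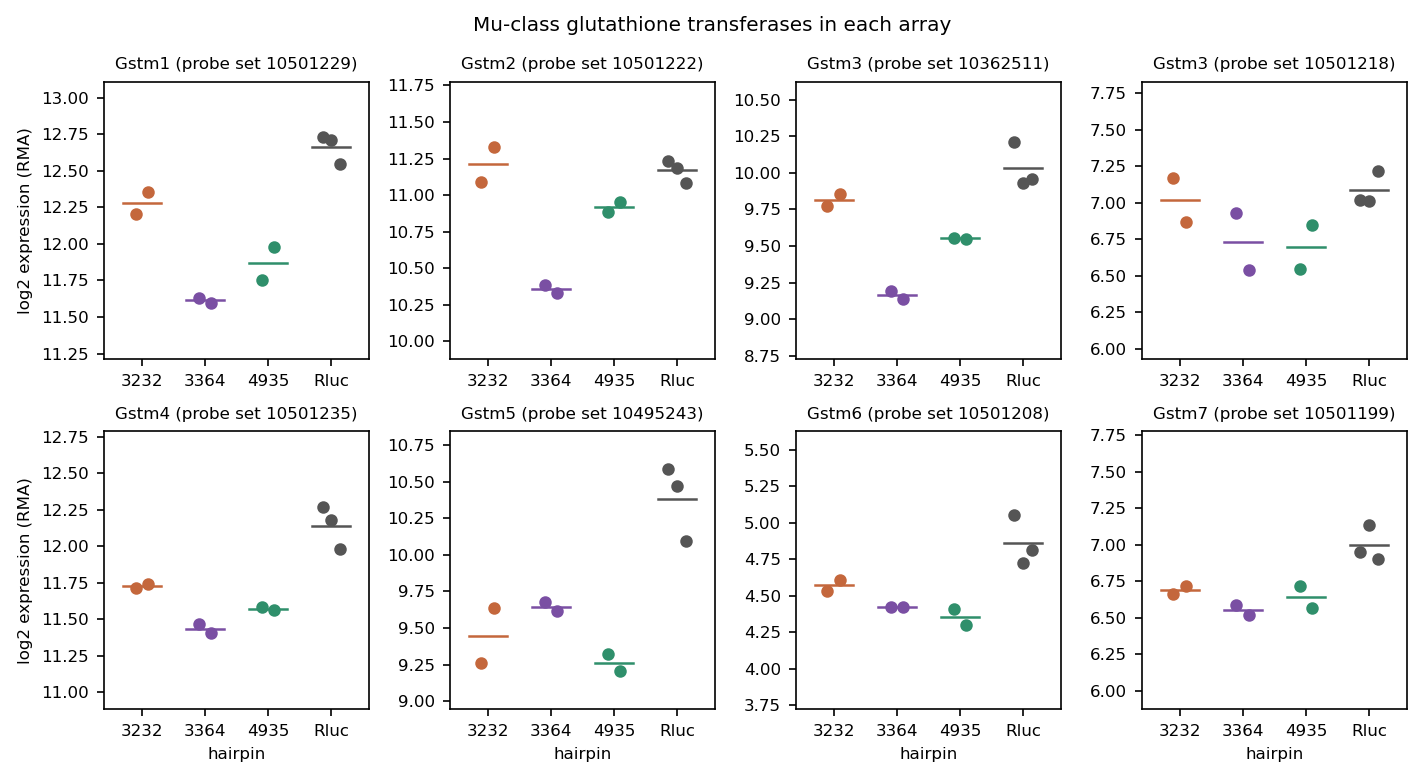
Level of each mu-class gene on every array, as log2 RMA expression on the vertical axis, with the 3 Brg1 hairpins to the left of Rluc. Points are arrays, short lines are group means, and each panel has its own range of the same span. All 6 knockdown arrays lie below all 3 Rluc arrays in every panel but those of Gstm2 and of the dimmer Gstm3 probe set (10501218).

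All 7 genes had a lower mean with the Brg1 hairpins than with Rluc, by 0.34 to 0.93 on the log2 scale, with a median change of -0.52 against a median of -0.00 over all genes. For 6 of the 7 the knockdown arrays did not overlap the Rluc arrays, the exception being Gstm2. The same separation was found in 12.1% of all genes, and since the members were picked for this fall nothing is read from the comparison. In bulk RNA a smaller number of expressing cells and less RNA per cell cannot be told apart.

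Gstm1 (probe set 10501229) stood at 12.20 and 12.35 with Brg1sh_3232, 11.63 and 11.59 with Brg1sh_3364, and 11.75 and 11.98 with Brg1sh_4935, against 12.73, 12.71 and 12.55 with Rluc. The 2 Brg1sh_3364 arrays were the lowest and no knockdown array reached the Rluc range. Its log2 change was -0.38 with Brg1sh_3232, -1.05 with Brg1sh_3364 and -0.79 with Brg1sh_4935 (SE 0.08 each), which left 76.7%, 48.4% and 57.7% of the Rluc signal.

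Gstm2 (probe set 10501222) stood at 11.09 and 11.33 with Brg1sh_3232, 10.39 and 10.33 with Brg1sh_3364, and 10.88 and 10.96 with Brg1sh_4935, against 11.24, 11.19 and 11.08 with Rluc. With Brg1sh_3232 the arrays fell on either side of the Rluc mean, whereas both arrays of each of the other hairpins lay below all Rluc arrays. Its log2 change was 0.04, -0.81 and -0.25 with Brg1sh_3232, Brg1sh_3364 and Brg1sh_4935 (SE 0.08 each). Its mean change of -0.34 (SE 0.06) became -0.10 without Brg1sh_3364, so that hairpin carried most of it.

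Gstm3 was read by 2 probe sets. The brighter one (10362511), which represents the gene here, stood at 9.77 and 9.85 with Brg1sh_3232, 9.19 and 9.14 with Brg1sh_3364, and 9.56 and 9.55 with Brg1sh_4935, against 10.21, 9.93 and 9.96 with Rluc. The order was that of Gstm1, with Brg1sh_3364 lowest and Brg1sh_3232 nearest to Rluc, and the log2 changes were -0.22, -0.87 and -0.48 for Brg1sh_3232, Brg1sh_3364 and Brg1sh_4935 (SE 0.08 each). The dimmer one (10501218) stood at 7.17 and 6.87 with Brg1sh_3232, 6.93 and 6.54 with Brg1sh_3364, and 6.55 and 6.85 with Brg1sh_4935, against 7.02, 7.01 and 7.22 with Rluc. Its knockdown and Rluc arrays overlapped, its mean log2 change was -0.27 (SE 0.12) against -0.52 (SE 0.06) for the brighter one, and its changes of -0.06, -0.35 and -0.39 put Brg1sh_4935 lowest. The numbers of the probe sets also differ: the 10 named probe sets nearest in number to the brighter one all belong to genes of chromosome 10, while at least 9 of the 10 nearest to each of the other 7 member probe sets belong to genes of chromosome 3. Whether the brighter probe set reads Gstm3 alone was not tested.

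Gstm4 (probe set 10501235) stood at 11.71 and 11.74 with Brg1sh_3232, 11.47 and 11.40 with Brg1sh_3364, and 11.58 and 11.56 with Brg1sh_4935, against 12.27, 12.18 and 11.98 with Rluc. The hairpins kept the same order as for Gstm1 within a narrower range, and the changes of -0.41, -0.70 and -0.57 (SE 0.08 each) left 75.1%, 61.4% and 67.5% of the Rluc signal.

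Gstm5 (probe set 10495243), which lies at the edge of the cluster and is transcribed from the other strand, stood at 9.26 and 9.64 with Brg1sh_3232, 9.68 and 9.62 with Brg1sh_3364, and 9.32 and 9.21 with Brg1sh_4935, against 10.59, 10.47 and 10.09 with Rluc. It had the most negative mean change of the family, -0.93 (SE 0.11), and the widest spread between Rluc arrays, 0.26 (SD, n = 3). Its order differed from that of Gstm1, with log2 changes of -0.94, -0.74 and -1.12 (SE 0.15 each) for Brg1sh_3232, Brg1sh_3364 and Brg1sh_4935, which left 52.3%, 59.98% and 46.0% of the Rluc signal.

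Gstm6 and Gstm7 were the dimmest members, both below the median gene level. Every array value of both genes lay below the array medians of 7.39 to 7.49. No detection calls were used, so it is not known whether their signal is above background. Gstm6 (probe set 10501208) stood at 4.53 and 4.61 with Brg1sh_3232, 4.43 and 4.42 with Brg1sh_3364, and 4.41 and 4.30 with Brg1sh_4935, against 5.05, 4.73 and 4.81 with Rluc. Gstm7 (probe set 10501199) stood at 6.66 and 6.72 with Brg1sh_3232, 6.59 and 6.52 with Brg1sh_3364, and 6.72 and 6.57 with Brg1sh_4935, against 6.95, 7.13 and 6.90 with Rluc. Neither gene's knockdown arrays overlapped the Rluc arrays, and their mean changes were -0.41 (SE 0.07) and -0.37 (SE 0.06). The third Rluc array was the lowest of the Rluc arrays for Gstm1, Gstm2, Gstm4, Gstm5 and Gstm7.

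Set against Rluc 1 hairpin at a time, 6 of the 7 genes had both Brg1sh_3232 arrays below all Rluc arrays, beside 20.8% of all genes. With Brg1sh_3364 this held for 7 of 7 genes, beside 23.6% of all genes, and with Brg1sh_4935 for 7 of 7, beside 22.8%. The median change over the 7 genes was -0.31 with Brg1sh_3232, -0.74 with Brg1sh_3364 and -0.51 with Brg1sh_4935. These comparisons share the Rluc arrays.

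**Figure D2:**
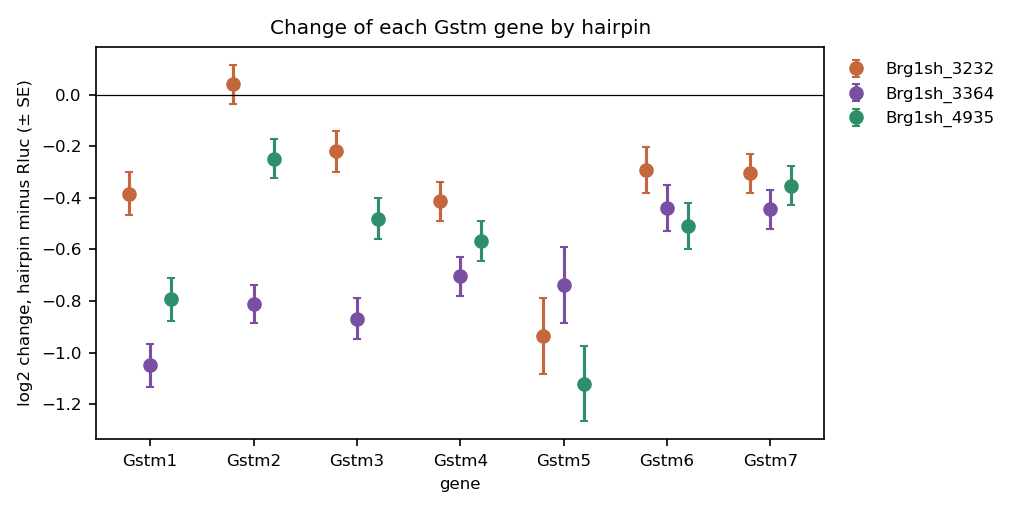
Log2 change of each mu-class gene against the Rluc mean, shown for each Brg1 hairpin, with bars for the SE of the fit. Gstm1, Gstm2 and Gstm3 spread widely among the hairpins, from 0.04 to -1.05, with Brg1sh_3364 lowest, while Gstm7 stays between -0.31 and -0.44. Gstm3 is shown by its brighter probe set.

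The hairpins differed from each other for Gstm1, Gstm2 and Gstm3 and for no other member at the threshold used. The limma F test over the 3 hairpins gave an adjusted p of 0.00600 for Gstm1, 0.00123 for Gstm2 and 0.00570 for Gstm3, adjusted over all genes. That is 3 of 7 members, beside 10.5% of all genes. Since probes of one member may take up RNA of another, members counted here and below need not be separate results. The adjusted p was 0.121 for Gstm4, 0.309 for Gstm5, 0.332 for Gstm6 and 0.521 for Gstm7, and 0.468 for the dimmer probe set of Gstm3. The count rested in part on 1 array: without the second Brg1sh_3364 array Gstm2 alone was called, with adjusted p = 0.0504 for Gstm1 and 0.0587 for Gstm3. Over all the alternatives run the adjusted p ranged from 0.00229 to 0.0504 for Gstm1, from 0.000281 to 0.0244 for Gstm2 and from 0.00116 to 0.0587 for Gstm3. It ranged from 0.0229 to 0.316 for Gstm4.

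Brg1sh_3364 stood below Brg1sh_3232 by 0.66 for Gstm1, 0.85 for Gstm2 and 0.65 for Gstm3 on the log2 scale (SE 0.09, 0.08 and 0.09; limma adjusted p = 0.00300, 0.000638 and 0.00283). These 3 of 7 members passed, beside 3.84% of all genes called lower. The same difference was -0.29 for Gstm4 (adjusted p = 0.0639), -0.15 for Gstm6 (adjusted p = 0.395), -0.14 for Gstm7 (adjusted p = 0.355) and 0.20 for Gstm5 (adjusted p = 0.501). For Gstm4 this difference was called with further quantile normalization, genes at or above the median level alone, trended and robust eBayes, array weights and the replicate block. It was also called without the first or without the third Rluc array (lowest limma adjusted p over these settings = 0.0114). The F test for Gstm4 was called only with the replicate block and without the third Rluc array (adjusted p = 0.0229 in the latter).

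Brg1sh_4935 stood above Brg1sh_3364 by 0.56 for Gstm2 (SE 0.08, limma adjusted p = 0.00443) and 0.39 for Gstm3 (SE 0.09, adjusted p = 0.0302), 2 of 7 members beside 3.10% of all genes called higher. The call for Gstm3 was lost when any 1 of the 6 knockdown arrays was left out (adjusted p = 0.0534 to 0.162). It was also lost without Brg1sh_3232 (adjusted p = 0.0534), with every probe set tested (adjusted p = 0.102), with the probe sets of each gene averaged (adjusted p = 0.312) and at the stricter threshold of 0.01. The call for Gstm2 was lost without the second Brg1sh_4935 array (adjusted p = 0.0564). Over the alternatives the adjusted p ranged from 0.00430 to 0.312 for Gstm3 and from 0.00105 to 0.0564 for Gstm2. Between Brg1sh_4935 and Brg1sh_3232, 0 of 7 members were called by limma, beside 1.02% of all genes, while 3 of 7 had an unadjusted p below the threshold. All 7 of these differences were negative, from -0.41 for Gstm1 to -0.05 for Gstm7.

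The order of the levels for Gstm1 was therefore Brg1sh_3364, Brg1sh_4935, Brg1sh_3232 and Rluc from low to high, and the arrays of no pair of hairpins overlapped. Among the hairpins, only the difference between Brg1sh_3364 and Brg1sh_3232 was called for Gstm1 in the fit used throughout. Its difference of -0.41 between Brg1sh_4935 and Brg1sh_3232 (SE 0.09, limma adjusted p = 0.0793) was called in 3 alternatives. These were arrays centred on their medians (adjusted p = 0.0467), genes at or above the median level alone (adjusted p = 0.0425) and the third Rluc array left out (adjusted p = 0.0499), within a range of 0.0425 to 0.368 over all alternatives run. For Gstm2 Brg1sh_3364 was called below both other hairpins, and the difference between those was not called. The same held for Gstm3, but its call against Brg1sh_4935 did not survive the loss of any single knockdown array. Brg1sh_3364 had the lowest hairpin mean for 5 of the 7 genes, beside 38.9% of all genes. Brg1sh_4935 had it for Gstm5 and Gstm6, beside 30.3% of all genes, and Brg1sh_3232 for 0 of 7, beside 30.8%. Both Brg1sh_3364 arrays lay below the 4 arrays of the other hairpins for Gstm1, Gstm2, Gstm3 and Gstm4, beside 14.1% of all genes. Smarca4 itself did not follow this order, since the 6 arrays of the hairpins lay between 10.67 and 10.90 with no hairpin apart from the other two.

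Markers of mature myeloid cells moved in the same samples. Of 12 macrophage markers 8 rose and 0 fell, beside 13.3% of all genes called higher and 15.0% called lower. Their mean level was 9.16 to 9.26 with Brg1sh_3232, 9.001 to 9.013 with Brg1sh_3364 and 9.36 on both arrays of Brg1sh_4935, against 8.61 to 8.64 with Rluc. Cx3cr1, a chemokine receptor, had a limma change of 1.92 (SE 0.05), and Csf1r, which binds macrophage colony stimulating factor, one of 1.06 (SE 0.04), and both were called. Of 10 late neutrophil markers 5 rose and 1 fell, with a mean level of 11.25 to 11.27 with Brg1sh_3232, 11.80 to 11.81 with Brg1sh_3364 and 11.43 to 11.44 with Brg1sh_4935, against 10.94 to 11.34 with Rluc. Brg1sh_3364 thus had the highest neutrophil mean of all groups and the lowest macrophage mean of the hairpins, though Rluc lay lower still for macrophages. Camp, the neutrophil marker that fell, changed by -1.76, -0.29 and -2.06 with Brg1sh_3232, Brg1sh_3364 and Brg1sh_4935. Of 10 mast cell, basophil and eosinophil markers 2 rose and 4 fell, but their mean level was higher in knockdown arrays (8.02 to 8.26) than in Rluc arrays (7.81 to 7.94). Of the 12 leukaemia and progenitor markers 6 rose and 4 fell. Erythroid and megakaryocyte markers (1 of 6 rose), lymphoid markers (1 of 9 rose and 1 fell) and the hepatocyte, epithelial and stromal markers (1 of 10 rose) had few calls. The part of these shifts in the Gstm levels was not tested.

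**Figure D3:**
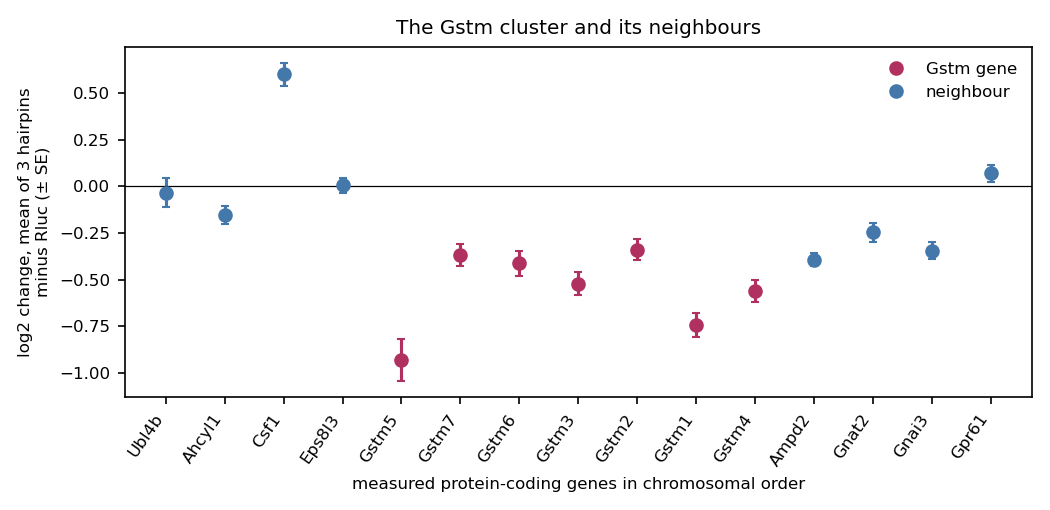
Log2 change over the mean of the Brg1 hairpins against Rluc for the Gstm cluster and its 4 measured neighbours on each side, in chromosome order, with bars for the SE. The 7 Gstm genes lie between -0.93 and -0.34, while the neighbours run from -0.40 for Ampd2 to 0.60 for Csf1. Gstm3 is shown by its brighter probe set (10362511), whose nearest probe sets by number belong to genes of chromosome 10.

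The genes beside the cluster moved in both directions. Of the 8 nearest protein-coding genes with their own values, 4 fell, beside 15.0% of all genes, 1 rose, beside 13.3%, and 3 were not called. With each hairpin counted as 1 replicate 2 of the 8 were called. Next to Gstm4, Ampd2, an AMP deaminase of purine metabolism, averaged 11.85 ± 0.12 over the knockdown arrays (SD, n = 6) and 12.24 ± 0.04 over the Rluc arrays (SD, n = 3), and fell by 0.40 (SE 0.03, limma adjusted p = 4.3e-05). Gnai3, an inhibitory G protein subunit, averaged 12.03 ± 0.05 over the knockdown arrays (SD, n = 6) and 12.37 ± 0.08 over the Rluc arrays (SD, n = 3), and fell by 0.35 (SE 0.04, limma adjusted p = 0.000407). Both calls held in every alternative run. Between them Gnat2, a transducin subunit of cone photoreceptors, fell by 0.25 (limma adjusted p = 0.00605), a call lost when each hairpin counted as 1 replicate (adjusted p = 0.123). The orphan receptor gene Gpr61 had a change of 0.07 (limma adjusted p = 0.33).

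On the Gstm5 side, Csf1, which encodes macrophage colony stimulating factor, stood at 8.96 and 9.16 with Brg1sh_3232, 8.63 and 8.45 with Brg1sh_3364, and 9.42 and 9.52 with Brg1sh_4935, against 8.35, 8.46 and 8.46 with Rluc. It rose by 0.60 (SE 0.06, limma adjusted p = 0.000104), and its changes of 0.64, 0.12 and 1.05 differed among the hairpins (F test adjusted p = 0.00112). The rise was not called when each hairpin counted as 1 replicate (adjusted p = 0.130). Ahcyl1, a relative of S-adenosylhomocysteine hydrolase, fell by 0.15 (limma adjusted p = 0.0424), a call lost in most left-out array settings and with each hairpin counted as 1 replicate (adjusted p = 0.189), and Ubl4b and Eps8l3 had changes of -0.03 and 0.01 (limma adjusted p = 0.822 and 0.954).

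**Figure D4:**
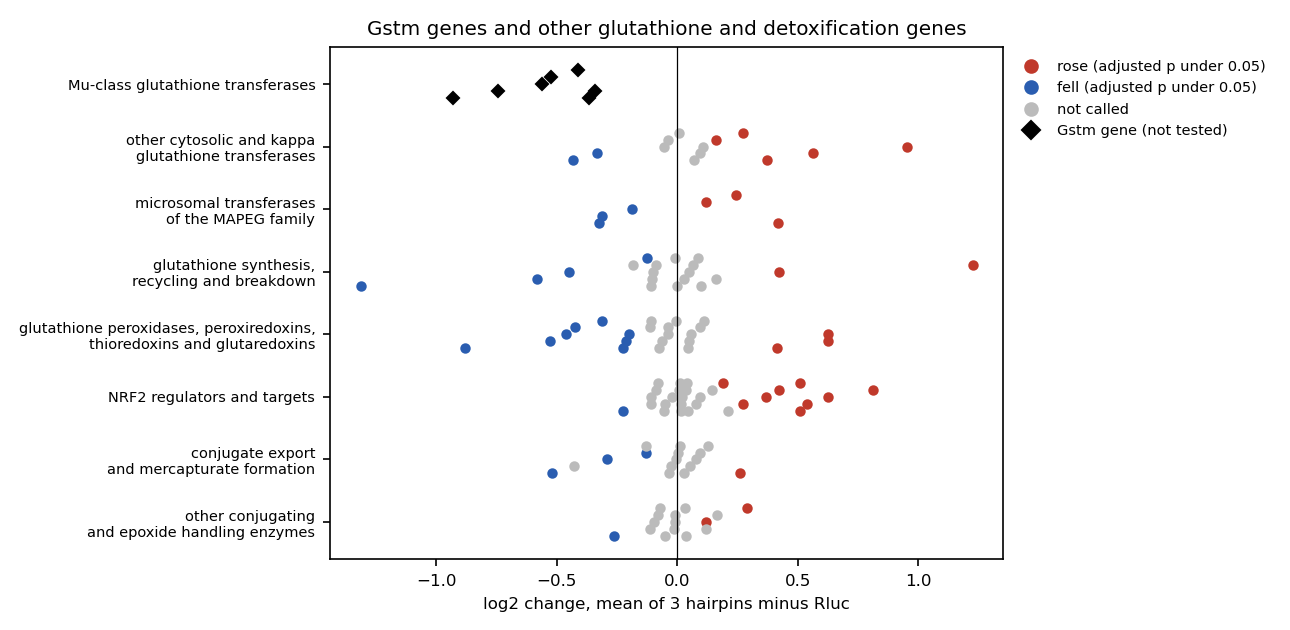
Log2 change over the mean of the Brg1 hairpins against Rluc for each measured gene of the glutathione and detoxification lists, with the mu class first. The mu-class points all lie below 0, while the medians of the other lists lie between -0.06 and 0.10.

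The other genes of glutathione metabolism moved in both directions. Over 7 lists, 23 of 115 measured genes rose (20%) and 21 fell (18.3%), beside 13.3% and 15.0% of all genes, and their median change was 0.01. With arrays centred on their medians 19 of these genes rose and 25 fell, and over all genes the share of calls that were higher was 36.5% in place of 47.1%.

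Among the other cytosolic and kappa-class transferases 5 of 13 rose (38.5%) and 2 fell (15.4%), beside 13.3% and 15.0% of all genes. Their median change was 0.10. Gstk1, the kappa-class enzyme of mitochondria and peroxisomes, stood at 11.39 and 11.45 with Brg1sh_3232, 11.59 and 11.54 with Brg1sh_3364, and 11.22 and 11.30 with Brg1sh_4935, against 10.98, 10.91 and 10.67 with Rluc. It rose by 0.56 (SE 0.07, limma adjusted p = 0.000220), with no overlap between the groups. The pi-class gene Gstp1 rose by 0.37 (SE 0.07, limma adjusted p = 0.00343), with a mean of 11.83 ± 0.13 over the knockdown arrays (SD, n = 6) and 11.46 ± 0.12 over the Rluc arrays (SD, n = 3). Gstz1, the zeta-class enzyme of tyrosine breakdown, fell by 0.43 (SE 0.05, limma adjusted p = 0.000231), with a mean of 9.49 ± 0.10 over the knockdown arrays (SD, n = 6) and 9.92 ± 0.11 over the Rluc arrays (SD, n = 3).

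Hpgds, the sigma-class enzyme that makes prostaglandin D2, had 6.54 and 6.82 with Brg1sh_3232, 6.86 and 6.99 with Brg1sh_3364, and 7.86 and 8.10 with Brg1sh_4935, against 6.24, 6.21 and 6.27 with Rluc. It rose by 0.95 (SE 0.07, limma adjusted p = 2.11e-05) and differed among the hairpins, with Brg1sh_4935 highest (F test adjusted p = 0.000430). With each hairpin counted as 1 replicate that rise was not called (adjusted p = 0.103). All 6 membrane-bound transferases and relatives of the MAPEG family were called, 3 higher and 3 lower, beside 13.3% and 15.0% of all genes. Ptges, the prostaglandin E synthase, rose by 0.42 and Alox5ap, the helper of 5-lipoxygenase, by 0.24 (limma adjusted p = 0.00846 and 0.00429), while Mgst2 fell by 0.33 and Mgst1 by 0.31 (limma adjusted p = 0.00208 and 0.0375). With each hairpin counted as 1 replicate only the call for Alox5ap was kept among these 4, with adjusted p = 0.133 for Ptges, 0.0594 for Mgst2 and 0.345 for Mgst1. The call for Mgst1 was also lost in most left-out array settings, and its changes were -0.36, -0.01 and -0.57 with Brg1sh_3232, Brg1sh_3364 and Brg1sh_4935.

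Among 19 genes of glutathione synthesis, recycling and breakdown 2 rose (10.5%) and 4 fell (21.1%), beside 13.3% and 15.0% of all genes. The synthetic enzymes had changes of -0.09 for Gclc, -0.11 for Gclm and -0.00 for Gss, and the reductase Gsr had 0.10, none of them called. Cth, cystathionine gamma-lyase, which supplies cysteine, averaged 8.26 ± 0.19 over the knockdown arrays (SD, n = 6) and 9.57 ± 0.30 over the Rluc arrays (SD, n = 3), and fell by 1.31 (SE 0.11, limma adjusted p = 3.25e-05). Anpep, an aminopeptidase of the cell surface, rose by 1.23 (SE 0.11). The aminopeptidase Lap3 fell by 0.58 and the dipeptidase Dpep2 by 0.45, and the call for Dpep2 was lost without Brg1sh_3364 (adjusted p = 0.698).

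Among 23 peroxidases, peroxiredoxins, thioredoxins and glutaredoxins 3 rose (13%) and 8 fell (34.8%), beside 13.3% and 15.0% of all genes. Gpx3, the secreted glutathione peroxidase, stood at 10.81 and 10.95 with Brg1sh_3232, 10.18 and 10.05 with Brg1sh_3364, and 10.75 and 10.78 with Brg1sh_4935, against 11.59, 11.48 and 11.32 with Rluc. It fell by 0.88 (SE 0.06, limma adjusted p = 1.6e-05), with Brg1sh_3364 lowest, as for Gstm1. Srxn1, which repairs oxidised peroxiredoxins, rose by 0.63 and Txnip, which binds thioredoxin, by 0.62, while the iron-sulphur glutaredoxin Glrx3 fell by 0.53.

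Among 29 regulators and targets of NRF2 9 rose (31%) and 1 fell (3.45%), beside 13.3% and 15.0% of all genes. Their median change was 0.04. Osgin1, an inhibitor of growth induced by oxidative stress, stood at 9.98 and 10.06 with Brg1sh_3232, 10.52 and 10.48 with Brg1sh_3364, and 10.17 and 10.16 with Brg1sh_4935, against 9.34, 9.42 and 9.49 with Rluc. It rose by 0.81 (SE 0.04, limma adjusted p = 2.88e-06). The autophagy adaptor Sqstm1 rose by 0.54 and the haem oxygenase Hmox1 by 0.51, while Nfe2l2, which encodes NRF2, Keap1, its inhibitor, and Nqo1, a quinone reductase among its targets, had changes of 0.04, 0.01 and 0.01 and were not called. The 9 that rose also include Bach1, a repressor of this programme, and Mafg, a partner of both, so the list does not hold targets alone. The 1 gene of this list that fell was Txnrd1, by 0.23 (limma adjusted p = 0.0227). The mu-class genes were picked for their fall, so nothing is read from their direction beside this list, and a part of NRF2 was not tested.

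Among 16 genes of conjugate export and mercapturate formation 1 rose (6.25%) and 3 fell (18.8%), beside 13.3% and 15.0% of all genes. Abcc3, a pump for conjugates, rose by 0.26 (limma adjusted p = 0.000801), and the pump gene Abcc4 fell by 0.29 (limma adjusted p = 0.00135). Kyat3, a cysteine conjugate lyase, fell by 0.52 (limma adjusted p = 0.000839). Among 15 other conjugating and epoxide handling enzymes 2 rose (13.3%) and 1 fell (6.67%), beside 13.3% and 15.0% of all genes. Tpmt, the thiopurine methyltransferase, had a change of 0.29 (limma adjusted p = 0.00637). Glo1, a glyoxalase that uses glutathione, had one of -0.26 (limma adjusted p = 0.0253). The calls for Abcc3, Abcc4, Tpmt and Glo1 were lost with each hairpin counted as 1 replicate (adjusted p = 0.0606, 0.0510, 0.0817 and 0.201), and that for Kyat3 was kept. The call for Glo1 was also lost without Brg1sh_3364 or Brg1sh_4935, in several left-out array settings and with probe sets averaged. Its change with Brg1sh_3232 was -0.05.

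The genes most like the family were ranked by Pearson's r with the mean of the centred member values over the 9 arrays. They were taken outside the family from genes with a change of at least 0.5 in size. The highest were Fam78a (r = 0.989), Cst7 (r = 0.982), F13a1 (r = 0.981), Smpdl3a (r = 0.980), Yars2 (r = 0.980), Fech (r = 0.978), Spsb4 (r = 0.978) and Retsat (r = 0.978). These are descriptions over arrays that share their groups. The members themselves ranged from 0.795 for Gstm2 to 0.990 for Gstm4 by the same measure, which includes each member in the mean. Cst7, which encodes the protease inhibitor cystatin F, stood at 11.97 and 12.08 with Brg1sh_3232, 11.24 and 11.06 with Brg1sh_3364, and 11.51 and 11.67 with Brg1sh_4935, against a mean of 12.81 with Rluc, in the same order of hairpins as Gstm1. F13a1, a subunit of coagulation factor XIII, had a change of -1.47 and Fech, which inserts iron into haem, a change of -0.76.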

How the data were processed

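The authors deposited log2 values, 1 per probe set and array, from RMA per the submitters' processing notes. Neither its version nor the array's build is given in the sources used here, and scanner files were not used. The platform annotation gave 21640 probe sets 1 gene symbol, 1321 several and 11799 none. No probe set with several symbols named a member. A gene with several probe sets took the values of its brightest set, with no filter on dim genes. The group means of all 9 arrays were estimated by limma 3.58.1 under R 4.3.3 (lmFit, eBayes; 5 residual and 3.85 prior degrees of freedom), hairpins weighted equally. Tests were two-sided, Benjamini-Hochberg adjusted over 19937 genes and called below 0.05. The number of arrays limits the precision. Correlations across probe sets were 0.996 to 0.997 within groups and 0.989 to 0.995 between groups.

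The members and the gene lists were chosen with earlier results of these data known. The lists comprised 7 for pathways and 7 for cell type markers. The text names all members, Smarca4, up to 4 called genes per list by size of change, 4 neighbours on each side, and the 8 genes most like the family, leaving out predicted models, receptor families and small RNAs. Genes named beside these (Gclc, Gclm, Gss, Gsr, Nfe2l2, Keap1, Nqo1, Txnrd1, Bach1 and Mafg) were chosen after their values were seen. The fit was also run on simulated arrays with independent noise, which cannot show whether arrays of the same hairpin count as replicates. The alternatives were other normalization, centring, filters, probe set rules, variance models, weights, blocks, thresholds and left-out arrays or hairpins.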

Additional observations from a re-analysis of the deposited data

Results flagged for a closer look

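Several genes differed among the 3 Brg1 hairpins in their change against Rluc, by the limma F test adjusted over all genes. In the family the adjusted p was 0.00600 for Gstm1, 0.00123 for Gstm2 and 0.00570 for the brighter probe set of Gstm3, each lowest with Brg1sh_3364. The dimmer probe set of Gstm3 had an adjusted p of 0.468 and was lowest with Brg1sh_4935. Beside the cluster it was 0.00112 for Csf1, highest with Brg1sh_4935, and 0.0203 for Ampd2, lowest with Brg1sh_4935. Among the named genes of the lists it was 0.000430 for Hpgds, 0.00640 for Anpep, 0.00104 for Dpep2, 0.00232 for Gpx3, 0.00377 for Osgin1, 0.0131 for Hmox1 and 0.0311 for Abcc3. No group held the 4 arrays that a check for single outlying arrays needs.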

How the results depend on the processing

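All 166 values of the members' mean change over 24 settings were below 0, as their choice makes likely. No called change of a member, or of a named gene that was recomputed, reversed its sign in any alternative. The 3147 recomputed values also include counts and F tests, which have no direction. The median change over the members was -0.52 as reported, -0.41 with all probe sets averaged, -0.64 without Brg1sh_3232 and -0.40 without Brg1sh_3364, and -0.56 to -0.43 when single arrays were left out. By hairpin, single left-out arrays gave -0.36 to -0.28 for Brg1sh_3232, -0.85 to -0.64 for Brg1sh_3364 and -0.56 to -0.41 for Brg1sh_4935. Members called for differences among hairpins numbered 1 to 4, against 3.

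Genes called over the mean of the hairpins numbered 5635, 4705 to 5407 without single arrays, 2816 with hairpin means as replicates and 2557 when the hairpin was a random block. List genes numbered 44, then 35 to 43, 22 and 22, and neighbours 5, then 4 to 5, 2 and 2 in the same settings. By hairpin the calls numbered 4155, 5133 and 4402, with ranges of 2473 to 4136, 3424 to 5052 and 2673 to 4292 without single arrays, and 2380, 3246 and 2813 at the stricter threshold of 0.01. The cause of these shifts was not tested. Replicate numbers did not pair the arrays: deviations of arrays with the same number correlated at -0.0721 to 0.249. With the number as a replicate block 4712 genes were called, the Brg1sh_3364 median was -0.85, and Gstm4 differed among hairpins (F test adjusted p = 0.0324). Number 3 occurs in Rluc alone, so in that setting the third Rluc array no longer bore on the group differences. Leaving that array out gave the same Brg1sh_3364 median. The F test could not be had without a hairpin or with hairpins as replicates or a random block, and the filter on dim genes dropped Gstm6 and Gstm7. A hairpin left with 1 array was assumed to vary like the others.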
